A study of Homo sapiens with 8 samples.

Results

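DEAD and DEAH box proteins are RNA helicases named after letters of a conserved motif, and 49 genes with a DDX or DHX symbol were listed among 13355 genes in measurements of transcript stability. They were taken by symbol, as every listed RefSeq accession whose gene symbol starts with DDX or DHX and a digit, leaving out DDX6, which belongs to the decapping machinery. The 49 genes had 74 listed transcripts of 22344, and 66 of these transcripts, from 48 genes, had a value in both cell populations. Of the genes, 46 encode proteins (31 DDX and 15 DHX symbols) and 3 do not: the pseudogene DDX12P, the antisense gene DDX11-AS1 and the divergent transcript DDX19A-DT. The cells were SW480, an established human colorectal adenocarcinoma line, which the series text calls breast cancer cells. They carried, stably expressed, either an shRNA that targets the RNA-binding protein RBMS1 or a control shRNA. Both populations received alpha-amanitin, a mushroom toxin that blocks RNA polymerase II, at 10 µg/mL, and total RNA was taken at 0 h and 9 h. The 4 groups (RBMS1 knockdown at 9 h and at 0 h, control shRNA at 9 h and at 0 h) held 2 libraries each, and the labels do not say whether the pair came from separate cultures. For the knockdown, 2 shRNA clones are named in the series text, without saying which clone was in which library. The tables hold ratios within a population and no level, so they carry no check of the knockdown, and the RBMS1 transcripts were at −0.35 and −1.38 in knockdown cells, against 0.09 and −0.37 in control cells per the authors' deposited tables.

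DEAD box proteins bind RNA and ATP and open short duplexes locally, whereas DEAH box proteins move along a strand and pull apart duplexes or proteins at a distance. Between them they drive the rearrangements of the spliceosome, the folding of pre-ribosomal RNA, the release of mRNA at the nuclear pore and the start of translation on structured mRNAs. In proliferating cells such as colorectal cancer lines most of them are housekeeping genes, and a few are germline or interferon-induced.

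The values were the authors' log2 fold changes of 9 h over 0 h, 1 per transcript and cell population with both libraries of each time combined. The headers give neither the log base nor the direction, which were inferred from the tool named by the submitters and from short-lived mRNAs that were negative. A negative value means less of the transcript, relative to the rest of the library, after the block. Neither depth nor variation among libraries can be read from them, so no test was possible and no value has an error. A size of 1 on this scale, a 2-fold change, was used only to count. For each gene the listed transcripts were averaged. The centred difference subtracts control from knockdown over shared transcripts and then takes off the median of that difference over all genes (−0.0168). In bulk RNA, fewer cells and less RNA per cell cannot be told apart. All 7 colorectal epithelial markers looked up were listed, against 3 of 9 markers of other cell types, and fold changes give no level.

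Most helicase mRNAs stayed close to the library average after 9 h of alpha-amanitin. The median over helicase genes was −0.15 in RBMS1 knockdown cells (48 genes, quartiles −0.42 and 0.17) and −0.04 in control cells (49 genes, quartiles −0.48 and 0.18). Over all genes it was −0.05 in knockdown cells and −0.07 in control cells. At −1 or below lay 4 helicase genes in knockdown cells, where 9.5% of all genes did, and 1 in control cells, where 10.7% of all genes did. At 1 or above lay 0 helicase genes in knockdown cells (5.26% of all genes) and 1 in control cells (4.85% of all genes). In knockdown cells 79.2% of helicase genes were within 0.5 of zero, against 61.9% of all genes. In control cells the shares were 67.3% and 59.8%. Of the protein-coding DHX genes, 12 of 15 were below 0 in knockdown cells and 11 of 15 in control cells. Of the protein-coding DDX genes, 15 of 30 were below 0 in knockdown cells and 12 of 31 in control cells. Over all protein-coding genes the shares below 0 were 55.3% in knockdown cells and 55.8% in control cells, and no test of the difference between DHX and DDX genes was made.

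**Figure D1:**
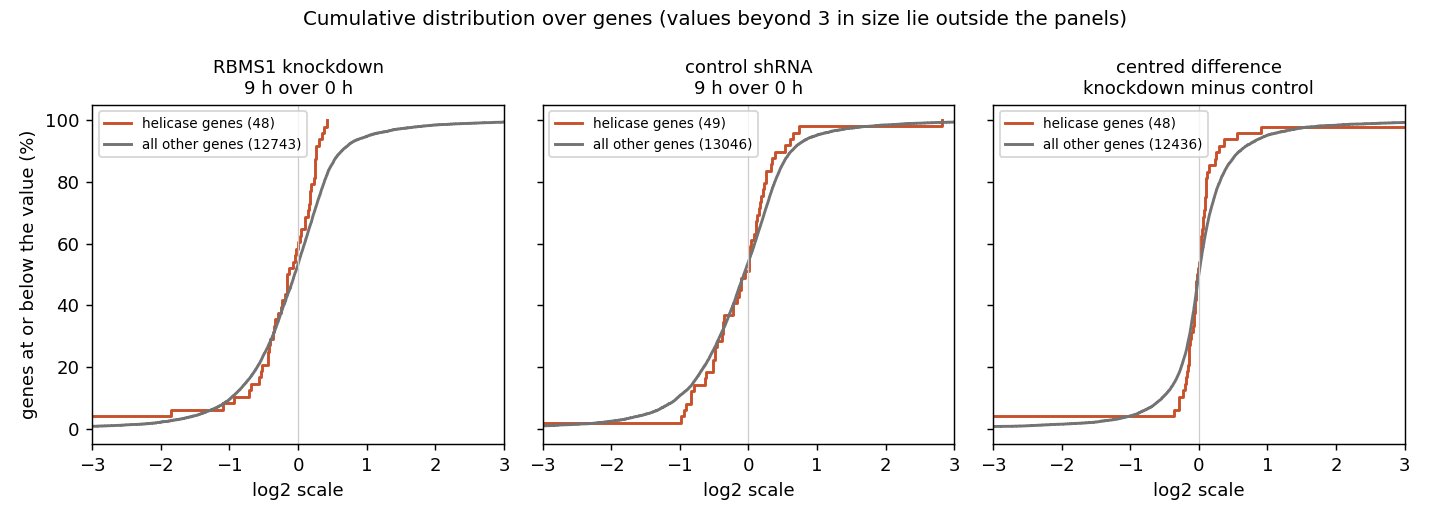
Cumulative share of genes (vertical axis, percent) at or below a log2 value (horizontal axis) for helicase genes and all other genes, in RBMS1 knockdown cells, in control cells and for the centred difference. The helicase curves are steeper around 0 than those of other genes, with 79.2% of helicase genes within 0.5 of zero in knockdown cells and 67.3% in control cells.

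The scale itself is relative. Set against the median of 80 ribosomal protein mRNAs, which are long-lived, the median of all genes shifted to −0.43 in knockdown cells and −0.48 in control cells. The helicase medians shifted with it, to −0.52 and −0.46, and 7 helicase genes in knockdown cells and 9 in control cells then lay at −1 or below, where 18.8% and 22.3% of all genes did.

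Helicases that act on cytoplasmic mRNPs and in translation were DDX3X, DHX29, DHX36 and DDX1. DDX3X (chromosome X, 41333308 to 41364472, GRCh38.p14) helps ribosomes to start on mRNAs with structured leaders. Its coding transcript NM_001193416 was at −0.57 in knockdown cells and −0.59 in control cells per the authors' deposited tables, and its other coding transcript NM_001193417 at −0.19 in knockdown cells and −0.18 in control cells. The DDX3X accessions marked non-coding, NR_126093 and NR_126094, lay above 0, at 0.69 and 0.21 in knockdown cells against 0.33 and 0.53 in control cells per the authors' deposited tables. The 4 DDX3X transcripts thus averaged 0.03 in knockdown cells and 0.02 in control cells, while in each population they spanned more than 1. DHX29, a helicase of the scanning ribosome, was at 0.10 in knockdown cells and 0.17 in control cells per the authors' deposited tables. DDX1, a member of the tRNA ligase complex, was at 0.25 in knockdown cells and 0.18 in control cells per the authors' deposited tables. DHX36, which resolves G-quadruplexes, had 1 shared transcript, at −0.51 in both populations per the authors' deposited tables. A further DHX36 transcript, NM_001114397, was listed for knockdown cells alone, at −3.19 per the authors' deposited table, and put the gene among the 4 at −1 or below there.

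The 9 spliceosomal helicases, whose order of action is best known from yeast, had medians of −0.14 in knockdown cells and 0.01 in control cells. DDX41 was the highest by the mean of both populations, at 0.41 in knockdown cells and 0.39 in control cells per the authors' deposited tables. DHX38, which remodels the spliceosome before its second step, followed at 0.23 in knockdown cells and 0.34 in control cells per the authors' deposited tables. DHX15, the helicase of spliceosome disassembly, was at −0.16 in knockdown cells and −0.23 in control cells, and DDX23, which acts in its assembly, at −0.16 in knockdown cells and 0.04 in control cells per the authors' deposited tables. DHX8, which releases spliced mRNA, had coding transcripts at −0.36 and 0.08 in knockdown cells, against −0.23 and −0.52 in control cells for the same accessions per the authors' deposited tables. For DHX16, which activates the spliceosome, the shared transcript was at −0.07 in knockdown cells and 0.08 in control cells, and NM_001164239 was listed for control cells alone at −2.06 per the authors' deposited tables. DDX42, which binds the U2-associated SF3b proteins, was at 0.14 in knockdown cells and −0.75 in control cells through the shared transcript NM_203499 per the authors' deposited tables. That is a centred difference of 0.91, and the other DDX42 transcript, in control cells alone, was at −0.93 per the authors' deposited table. DHX35, a helicase of the catalytic spliceosome, and DDX46 differed between transcripts and are given with their sequences.

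Of the mRNA export helicases, DDX39B and its paralogue DDX39A load export factors onto spliced mRNA, and DDX19B and DDX19A act at the cytoplasmic face of the nuclear pore. Apart from 1 DDX19B form, their coding transcripts lay within 0.5 of zero. The coding transcript of DDX39A was at −0.04 in knockdown cells and 0.05 in control cells per the authors' deposited tables. Coding transcripts of DDX39B were at 0.41 (NM_080598) and −0.07 (NM_004640) in knockdown cells, against 0.08 and 0.09 in control cells for the same accessions per the authors' deposited tables. DDX19A was at 0.25 in knockdown cells and 0.33 in control cells, and the DDX19B transcript NM_007242 at −0.09 in knockdown cells and −0.07 in control cells per the authors' deposited tables. A shorter-coding DDX19B transcript, NM_001014449, was higher in both, at 0.85 in knockdown cells and 1.14 in control cells per the authors' deposited tables. These paralogues are close in sequence and how the authors assigned reads to them is not stated, so their values are uncertain.

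None of the 16 helicases of ribosome biogenesis reached 1 in size in either population as a gene. Of all genes, 9.5% lay at −1 or below and 5.26% at 1 or above in knockdown cells. In control cells these shares were 10.7% and 4.85%. The medians of the 16 were 0.01 in knockdown cells and 0.07 in control cells. All 16 centred differences were under 0.5 in size, from −0.37 to 0.37, where 76.9% of all genes were under 0.5. DDX21, which links RNA polymerase I transcription and rRNA processing, had transcripts at 0.75 (NM_001256910) and 0.02 (NM_004728) in knockdown cells, against 1.01 and 0.19 in control cells per the authors' deposited tables. Its neighbour and paralogue DDX50 was lower, at −0.34 in knockdown cells and −0.17 in control cells per the authors' deposited tables. DDX24, DDX56 and DHX37, which releases a snoRNA from the pre-ribosome, were at 0.24, 0.18 and 0.19 in knockdown cells, against 0.26, 0.21 and 0.13 in control cells per the authors' deposited tables. DDX18, DDX27 and DDX47 were at 0.10, 0.05 and −0.05 in knockdown cells, against 0.15, 0.23 and 0.02 in control cells per the authors' deposited tables. On the lower side, DDX52, DDX31, DDX10, DDX55 and DDX51 were at −0.41, −0.35, −0.24, −0.15 and −0.03 in knockdown cells, against −0.36, −0.48, −0.11, 0.01 and −0.14 in control cells per the authors' deposited tables. The shared transcript of DHX33, a nucleolar DEAH helicase, was at −0.01 in knockdown cells and −0.36 in control cells, and NM_001199699 was listed for knockdown cells alone at −1.37 per the authors' deposited tables.

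**Figure D2:**
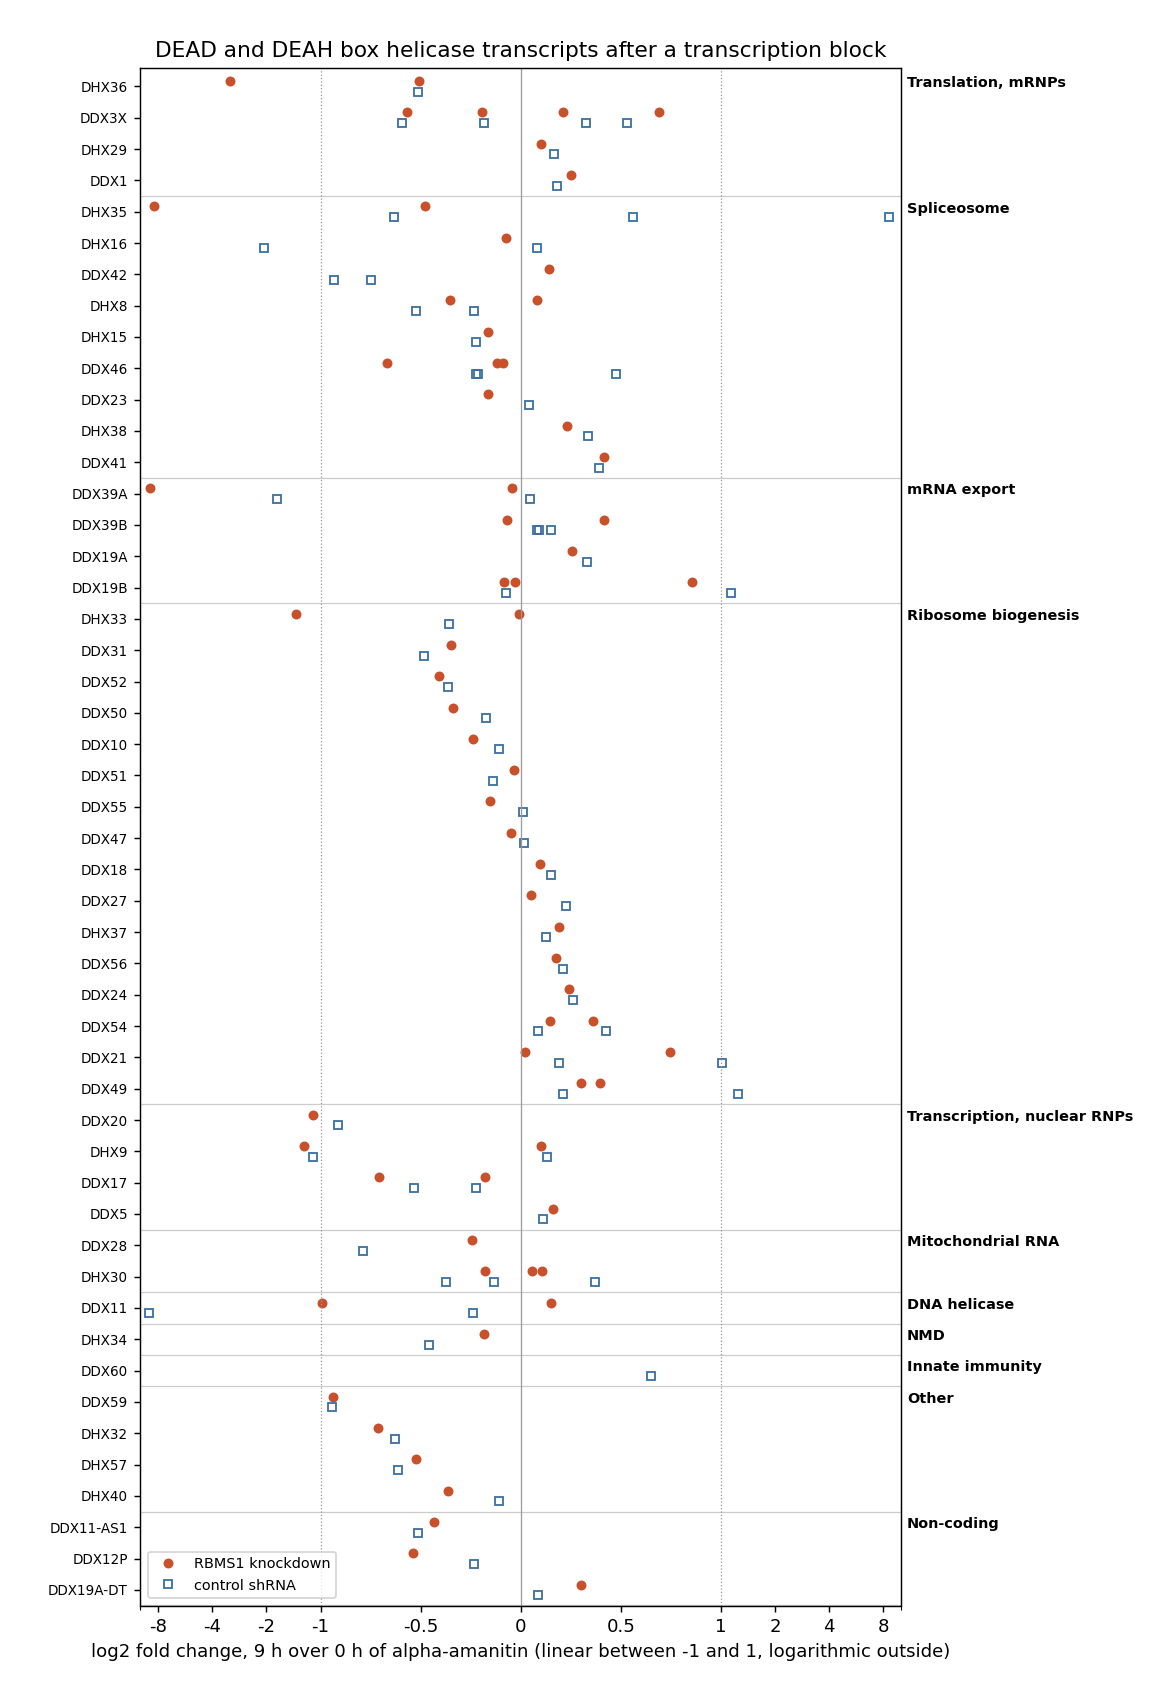
Log2 fold change of 9 h over 0 h (horizontal axis, linear between −1 and 1 and logarithmic outside) for every listed transcript of the 49 genes, grouped by role, with RBMS1 knockdown cells as filled circles above control cells as open squares. Most points lie between −1 and 1, and the points beyond 2 in size belong to DHX35 (2 transcripts) and to 1 transcript each of DHX36, DHX16, DDX39A and DDX11.

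Nuclear cofactors of transcription and RNP assembly included the lowest of the genes with 1 listed transcript, by the mean of both populations. DDX20, a partner of the SMN complex that builds spliceosomal RNPs, was at −1.10 in knockdown cells and −0.91 in control cells per the authors' deposited tables. DDX5, a transcription coactivator that also acts in microRNA processing, was at 0.16 in knockdown cells and 0.11 in control cells per the authors' deposited tables. Its paralogue DDX17 lay lower, at −0.71 (NM_001098504) and −0.18 (NM_006386) in knockdown cells, against −0.22 and −0.54 in control cells per the authors' deposited tables. The DDX17 transcripts took opposite places in the 2 populations, and their mean was −0.44 in knockdown cells and −0.38 in control cells. DHX9, RNA helicase A, had a coding transcript at 0.10 in knockdown cells and 0.13 in control cells per the authors' deposited tables. Its non-coding accession NR_033302 was at −1.24 in knockdown cells and −1.10 in control cells per the authors' deposited tables. That is more than 1 below the coding one in both populations. Both were matched to the same reference transcript, so their structures could not be compared.

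Among the remaining members, DDX59 was at −0.94 in both populations and DHX32 at −0.71 in knockdown cells and −0.63 in control cells per the authors' deposited tables. DHX57 and DHX40 were at −0.52 and −0.36 in knockdown cells, against −0.62 and −0.11 in control cells per the authors' deposited tables. DDX28, which acts in the assembly of the mitochondrial ribosome, was at −0.24 in knockdown cells and −0.79 in control cells per the authors' deposited tables, which gave a centred difference of 0.56. DHX30, a partner of mitochondrial RNA granules, had transcripts at 0.06, 0.11 and −0.18 in knockdown cells, against −0.37, −0.13 and 0.37 in control cells for the same accessions per the authors' deposited tables. DHX34, a factor of nonsense-mediated decay, was at −0.19 in knockdown cells and −0.46 in control cells per the authors' deposited tables. The interferon-induced DDX60 was listed for control cells alone, at 0.65 per the authors' deposited table. The germline helicases DDX4, DDX43 and DDX53, and DDX25, DDX3Y, DDX60L and DHX58, were looked up and had no row. The antisense DDX11-AS1, the pseudogene DDX12P and DDX19A-DT were at −0.43, −0.54 and 0.30 in knockdown cells, against −0.52, −0.23 and 0.09 in control cells per the authors' deposited tables. DDX12P is a near copy of DDX11, and strand use in counting is not stated, so reads of DDX11, DDX12P and DDX11-AS1 may be mixed.

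The second question was whether helicase mRNAs differed in stability between RBMS1 knockdown and control cells. The median centred difference of 48 helicase genes was −0.02 with quartiles −0.14 and 0.09, against quartiles of −0.19 and 0.23 over all 12484 genes. A centred difference of −1 or less was found for 2 helicase genes (DHX35 and DDX39A), where 4.17% of all genes had one, and of 1 or more for 1 (DDX11), where 4.87% of all genes had one. The share of helicase genes under 0.5 in size was 89.6%, against 76.9% of all genes. Together 3 of 48 were past 1 in size, where 9.04% of all genes were, and each of the 3 through 1 of several transcripts. Among the 30 helicase genes with 1 listed transcript and both values, the centred differences ran from −0.29 to 0.56 and 96.7% were under 0.5 in size, against 85.0% of all genes with 1 listed transcript.

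Across these 30 genes the populations ranked the helicases alike, with a Pearson's r of 0.90 and a Spearman's rho of 0.90, against 0.71 and 0.78 across all 7286 genes with 1 transcript. Across all 48 helicase genes Pearson's r was −0.07 and Spearman's rho 0.73, against 0.44 and 0.62 across all 12531 genes. Genes are not independent replicates, all points share the same libraries, and these values are descriptions without a test. DDX59 and DDX20 were the lowest of the 30 in both populations and DDX41 the highest in both.

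**Figure D3:**
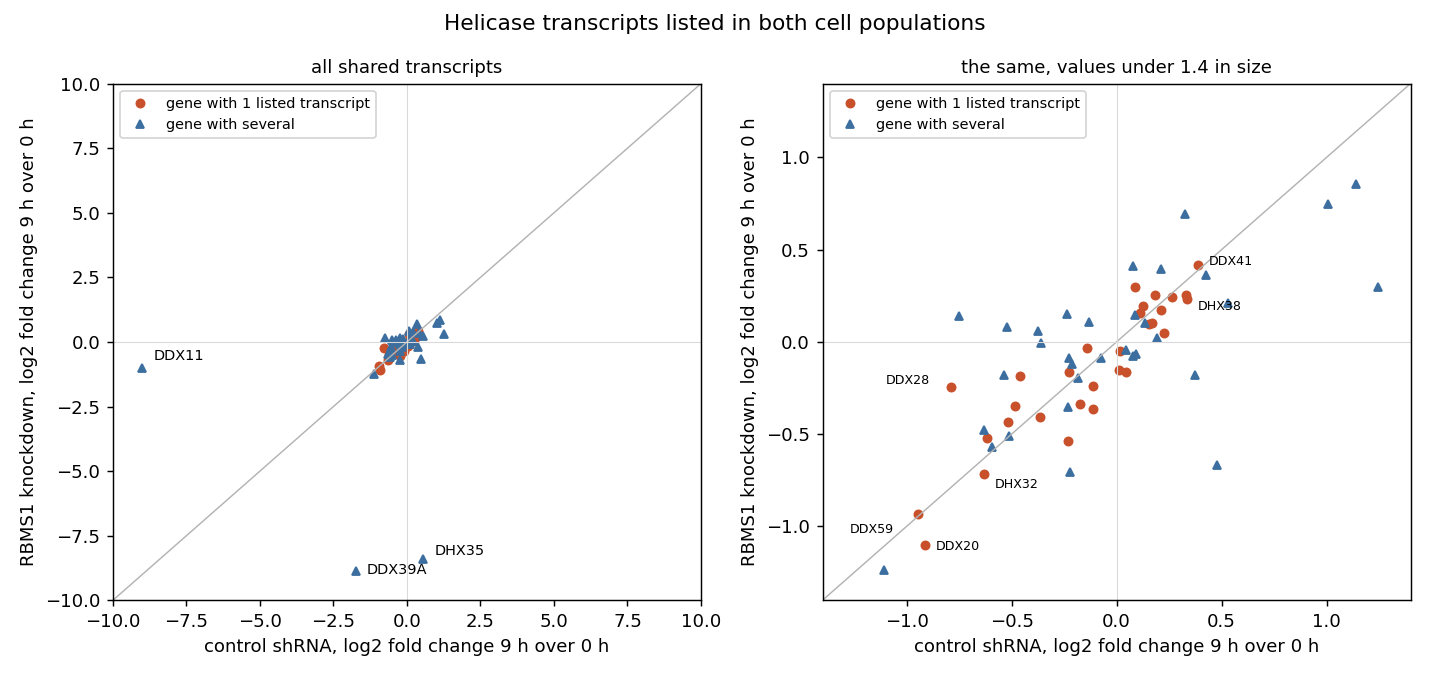
RBMS1 knockdown (vertical axis) against control cells (horizontal axis), log2 fold change of 9 h over 0 h, for the 66 helicase transcripts with both values, with genes of 1 listed transcript as circles and genes of several as triangles. The left panel holds all points and the right panel the central part, where circles follow the diagonal from DDX20 and DDX59 to DDX41 and the triangles scatter more widely.

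The wide values came from genes with several transcripts. Of the 18 such genes, 14 had at least 2 transcripts with both values, and their transcripts differed by 1 or more in the difference for 5 of the 14, where 53.7% of 4408 genes did. Within knockdown cells the transcripts of a gene lay 1 or more apart for 7 of 16 helicase genes (53.5% of all genes with several), and within control cells for 8 of 16 (53.8%).

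Several of these transcripts differ from another of the same gene by a short stretch at a splice junction, which is shown because it is one of the places where the forms can be told apart. The matched transcripts of the DDX54 pair differ by the stretch alone. The other pairs also differ elsewhere, some of them by longer stretches that are not shown. The sequences are those of the matched GENCODE release 29 transcripts (GRCh38, the assembly of hg38), transcript strand, 5′ to 3′, with 20 flanking bases on each side in lower case and, in capitals, the bases that only the longer form has at that place. All capitals shown are coding in the longer form. The stretch of DDX46 lies at chr5:134816604-134816606 (+), of DDX54 at chr12:113159110-113159112 (−), of DDX11 at chr12:31103317-31103321 (+), of DDX17 at chr22:38487873-38487878 (−), of DHX36 at chr3:154295298-154295339 (−), of DDX49 at chr19:18920580-18920650 (+), of DHX35 at chr20:38972559-38972651 (+) and of DDX39A at chr19:14409536-14409645 (−).
DDX46: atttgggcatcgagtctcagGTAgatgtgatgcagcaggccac
DDX54: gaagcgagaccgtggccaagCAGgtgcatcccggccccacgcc
DDX11: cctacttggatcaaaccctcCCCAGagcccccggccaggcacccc
DDX17: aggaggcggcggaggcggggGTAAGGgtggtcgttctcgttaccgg
DHX36: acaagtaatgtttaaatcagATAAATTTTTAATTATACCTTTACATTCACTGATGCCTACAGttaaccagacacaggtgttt
DDX49: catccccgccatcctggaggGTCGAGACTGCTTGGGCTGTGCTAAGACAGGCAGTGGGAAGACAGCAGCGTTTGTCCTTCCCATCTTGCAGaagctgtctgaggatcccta
DHX35: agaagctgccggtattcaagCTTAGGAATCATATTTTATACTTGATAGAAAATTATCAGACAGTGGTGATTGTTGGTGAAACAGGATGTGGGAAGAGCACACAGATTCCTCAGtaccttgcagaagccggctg
DDX39A: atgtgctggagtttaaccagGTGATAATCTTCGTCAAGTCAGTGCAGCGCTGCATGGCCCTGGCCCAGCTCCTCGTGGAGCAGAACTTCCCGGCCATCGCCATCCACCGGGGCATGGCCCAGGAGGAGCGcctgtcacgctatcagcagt

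DDX46 is a helicase that acts when the U2 particle joins the intron. Its coding transcripts differ at the 3 capital bases and in the 3′ untranslated region, which has 2432 nt in the matched transcript of NM_001300860 and 590 nt in that of NM_014829. The form with the capital bases, NM_001300860, was at −0.09 in knockdown cells and −0.23 in control cells per the authors' deposited tables. The form without these bases, NM_014829, was at −0.67 in knockdown cells and 0.48 in control cells per the authors' deposited tables, which gave a centred difference of −1.13. The non-coding DDX46 accession NR_125341 was at −0.12 in knockdown cells and −0.21 in control cells per the authors' deposited tables, near the form with the capital bases. DDX54, a nucleolar helicase, also has a pair that differs by 3 bases. Its longer form, NM_001111322, was at 0.15 in knockdown cells and 0.09 in control cells per the authors' deposited tables, and its shorter form, NM_024072, at 0.36 in knockdown cells and 0.42 in control cells.

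DDX11 (chromosome 12, 31073860 to 31104799, GRCh38.p14), a DNA helicase of sister chromatid cohesion, had the largest positive difference. Its matched transcripts also differ in the 3′ untranslated region, with 107 nt for NM_030653 and 758 nt for NM_152438. The transcript with the 5 capital bases, NM_030653, was at 0.15 in knockdown cells and −0.24 in control cells per the authors' deposited tables. The transcript without them, NM_152438, was at −0.99 in knockdown cells and −9.00 in control cells per the authors' deposited tables, which gave a centred difference of 8.02. No levels are given, so how many reads lie behind values of this size, here and in DDX39A and DHX35, is unknown.

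DDX39A and DHX35 had the largest negative differences, both through a non-coding accession. The 110 capital bases of DDX39A are a whole exon, not a multiple of 3, that the accession NR_046366 skips, and GENCODE classes the matched transcript as a target of nonsense-mediated decay. It was at −8.85 in knockdown cells and −1.73 in control cells per the authors' deposited tables, which gave a centred difference of −7.10, while the coding DDX39A transcript had one of −0.07. DHX35 accession NR_033905 was at −8.40 in knockdown cells and 0.56 in control cells per the authors' deposited tables, which gave a centred difference of −8.94. The coding DHX35 transcript NM_021931 was at −0.48 in knockdown cells and −0.63 in control cells per the authors' deposited tables. Both were paired with the same GENCODE transcript, a protein-coding one, so the capital bases do not tell these forms apart. The DHX35 transcript that skips the 93 capital bases, NM_001190809, was listed for control cells alone, at 8.54 per the authors' deposited table. DDX49, of the small ribosomal subunit pathway, had a coding transcript at 0.40 in knockdown cells and 0.21 in control cells, and the accession without its 71 capital bases, NR_033677, again a GENCODE decay target, was at 0.30 in knockdown cells and 1.25 in control cells per the authors' deposited tables. GENCODE classes 2 further matched transcripts as decay targets, those of DDX3X NR_126093 and DDX46 NR_125341. Set against the coding transcripts of the same gene, the decay target was lower for DDX39A in both populations and higher for DDX3X in both. For DDX49 it was lower in knockdown cells and higher in control cells, and for DDX46 it lay between the coding transcripts in both.

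**Figure D4:**
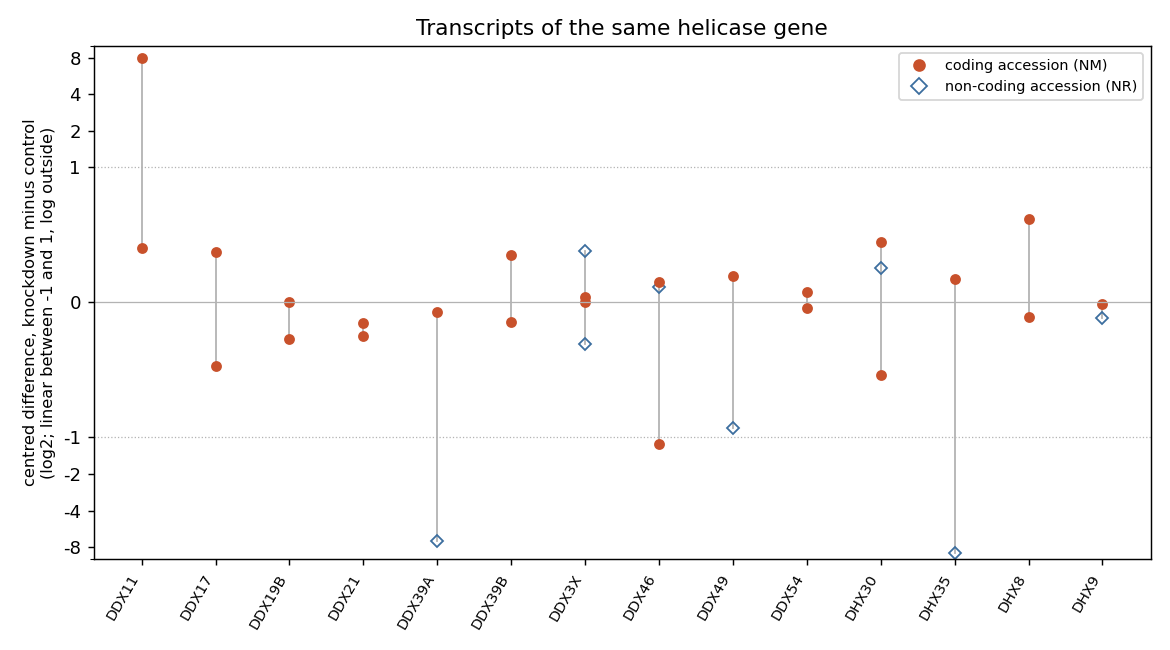
Centred difference, knockdown minus control (vertical axis, log2, linear between −1 and 1 and logarithmic outside), of each shared transcript of the 14 helicase genes with at least 2, coding accessions as filled circles and non-coding ones as open diamonds. The transcripts of DDX11, DDX39A and DHX35 lie more than 7 apart, and those of DDX21, DDX54 and DHX9 within 0.12 of each other.

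Non-coding accessions of protein-coding helicase genes had a median of −0.01 over 8 in knockdown cells and 0.15 over 9 in control cells, with a range of −8.85 to 0.69 and of −1.73 to 1.25. The coding transcripts had medians of −0.07 over 58 in knockdown cells and −0.07 over 59 in control cells. Counted by transcript, 6 of 69 helicase transcripts in knockdown cells (13% of all transcripts) and 4 of 71 in control cells (13.8%) lay at −1 or below, and 0 in knockdown cells (8.63%) and 4 in control cells (8.29%) lay at 1 or above. By difference, 3 of 66 lay at −1 or less (8.68%) and 1 at 1 or more (8.97%).

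Other RNA helicases, none with a DDX or DHX symbol except DDX6, and proteins with a domain of helicase cofactors were set beside these genes. The 18 listed other RNA helicases had medians of −0.10 in knockdown cells and −0.14 in control cells. EIF4A2, a DEAD box subunit of the cap-binding complex, was at −1.08 in knockdown cells and −1.03 in control cells per the authors' deposited tables. EIF4A3, the helicase of the exon junction complex, was at 0.38 in knockdown cells and 0.43 in control cells per the authors' deposited tables. DDX6 was the only one of these with a centred difference past 1, at 1.23, from transcripts at 1.72 and 0.19 in knockdown cells against −0.34 and −0.17 in control cells per the authors' deposited tables. The 23 genes listed for a G-patch or MIF4G domain were taken by domain, and whether each stimulates a helicase was not tested. Their medians were −0.15 in knockdown cells and −0.24 in control cells. At −1 or below lay 3 in knockdown cells and 0 in control cells, where 9.5% and 10.7% of all genes lay. SUGP1, a G-patch protein of the spliceosome, was at 0.43 in knockdown cells and 0.41 in control cells per the authors' deposited tables. RBM5 and ZGPAT had centred differences of −3.01 and 1.76, each through 1 transcript, at −6.68 and 8.40 in knockdown cells against −0.54 and 0.31 in control cells per the authors' deposited tables. The mean of SON, at −2.07 in knockdown cells and −0.19 in control cells, rested on 2 transcripts listed for knockdown cells alone.

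Helicase mRNAs had long coding regions and short 3′ untranslated regions. The median over the 46 protein-coding genes was 2343 nt of coding sequence and 672.5 nt of 3′ untranslated region, against 1335 nt and 1112 nt over 11557 genes. Spearman's rho of the 3′ untranslated length with the fold change was −0.09 over 45 helicase genes in knockdown cells and 0.07 over 46 in control cells, against −0.18 in both over all genes, given as a description.

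RBMS1 is known to bind AU-rich stretches, so the letters ATATA were searched on the transcript strand, overlaps counted, in the last 300 nt of the longest 3′ untranslated region of each gene. Of 36 helicase genes with such a window 10 held the letters (27.8%), against 35.6% of 9611 genes. The 9 of them with both values had a median centred difference of 0.02, from −0.29 to 0.91. The 26 without the letters had −0.03, from −4.38 to 4.21. These are gene means over shared transcripts, whereas only the longest region was searched. For DDX46, at −0.29, the transcript with the searched region was at 0.15 and the other coding one at −1.13. DHX36 held the most copies, 7, followed among helicases with both values by DDX19A with 3, and 4 others had 2 each. The first copy of DHX36, of DDX19A and of DDX42, the holder with the largest difference, reads as follows with the letters in capitals.
DHX36: tcatgtatacttATATAtttttaatatgc
DDX19A: aATATAgccgggcctggtggcgcacgcct
DDX42: aaaggaaaagaaATATAcaaactttgact

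DHX36 with 7 copies had a centred difference of 0.02 over its shared transcript, and DDX42 with 1 copy had 0.91. A match is a run of letters and not a binding site.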

How the data were processed

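Total RNA of 8 SW480 libraries was depleted of ribosomal RNA and sequenced, per the labels' protocols. Per the submitters' processing notes the tools were STAR 2.5, Cufflinks and Cuffdiff and the build hg38, with no role or order stated. The authors deposited 2 tables of 1 log2 fold change per RefSeq transcript with the libraries combined, so depth is unknown. The base was taken as log2 because Cuffdiff writes log2, and the direction, 9 h over 0 h, from the short-lived mRNAs of MYC, FOS and JUN, which were negative, since neither is in the headers. Normalisation, filters and the assignment of reads among transcripts are not stated there.

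Of 22468 listed accessions, 22132 took a symbol from the RefSeq gene table (GRCh38.p14) and 212 from GENCODE release 29, and 124 without one were left out. Values were averaged per gene with pandas 2.3.3 in Python 3.11.15, and the averaging was tested on simulated data. The members and lists were chosen with earlier results of these data known. Genes named were those with a centred difference of 1 or more in size, the 2 lowest and 2 highest of each role, paralogue pairs and genes with transcripts 1 or more apart. Other members are given for completeness, and the sequences printed were chosen after their values were seen. Transcript structure came from the GENCODE transcript paired with each accession, whose ends may differ from RefSeq. A few accessions share 1 GENCODE transcript, among them the coding and non-coding ones of DHX9 and DHX35. Alternatives were another summary over transcripts, subsets of transcripts or genes, and ribosomal protein mRNAs as the scale.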

Additional observations from a re-analysis of the deposited data

Results flagged for a closer look

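Helicase transcripts with values of opposite sign in the 2 populations and a centred difference of 1 or more in size numbered 2 of 66, a share of 3.03%, against 10.3% of 19243 shared transcripts of all genes. These were DDX46 NM_014829, with a centred difference of −1.13 from −0.67 in knockdown cells and 0.48 in control cells, and DHX35 NR_033905, with −8.94 from −8.40 in knockdown cells and 0.56 in control cells. Each value is the authors' single comparison for that population, and the difference between the populations was not tested.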

How the results depend on the processing

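No paired analysis was possible because each deposited value combines the libraries of a time, and for the same reason no library could be left out. Of 72 alternative values, 45 kept their sign and stayed within 1.5 times a count or within 0.1 of a median. An alternative kept for each gene the transcript with the value nearest zero, which tends to lower counts past 1 by construction. Counts of helicase genes at −1 or below in knockdown cells were 4 as reported. They were 1 with the value nearest zero. With genes of 1 listed transcript they were 1 of 30, where 8.46% of all such genes lay. With coding accessions or without values over 5 in size the count was 2. Relative to ribosomal protein mRNAs it was 7, where 18.8% of all genes lay. In control cells the count was 1 as reported and 9 relative to ribosomal protein mRNAs, where 22.3% of all genes lay. It was 0 with the value nearest zero or without values over 5, and 0 of 31 with 1 listed transcript (9.93% of all such genes). At 1 or above in control cells the count was 1 as reported. It was 0 with the median over transcripts, the value nearest zero, no values over 5 or only transcripts in both tables. With 1 listed transcript it was 0 of 31 (3.95% of all such genes). Centred differences of −1 or less numbered 2 as reported. They numbered 0 with the value nearest zero, coding accessions or no values over 5, and 0 of 30 with 1 listed transcript (1.89% of all such genes). Those of 1 or more numbered 1 as reported and 0 with the value nearest zero or no values over 5. With 1 listed transcript they numbered 0 of 30 (2.62% of all such genes). For the other alternatives no share over all genes is given, so their counts have no background. Apart from the ribosomal protein scale and the median over transcripts, these alternatives use fewer transcripts or genes by construction. The knockdown median was −0.15 as reported, −0.0458 with the value nearest zero and −0.0614 without values over 5. It was −0.0740 with coding accessions and −0.52 relative to ribosomal protein mRNAs. The control median was −0.0450 as reported, −0.11 with the median over transcripts, −0.0728 with the value nearest zero and −0.0161 without the 3 non-coding genes. It changed sign to 0.013 with genes of 1 listed transcript and 0.014 with coding accessions, and was −0.46 relative to ribosomal protein mRNAs. The median centred difference changed sign to 0.0013 with the value nearest zero. The alternatives of transcripts in both tables and of leaving out the 3 non-coding genes were chosen after seeing the data.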
